A study of Mus musculus with 6 samples.

Results

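The genes described here drive DNA replication and mitosis, measured in murine pre-B cells that were held in G1 phase by a drug and then irradiated. The list named 50 genes of S, G2 and M phase by their function, and was chosen with earlier results of these data known. A probe set assigned to 1 gene name was used for 49 of them, and 1 (Ccnb1) was not analysed here. Each gene is represented by its brightest probe set. By that probe set 48 of the 49 genes reached a signal of 100 on at least 1 of the 6 arrays and were tested, against 9648 genes tested of 18193 named on the array. The brightest probe set of Cdc25c, a phosphatase that activates mitotic Cdk1, stayed under 100 on every array. A dimmer Cdc25c probe set reached 113 in line 1 at 0 Gy and was not called with the block described below (limma adjusted p = 0.16).

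The groups were 1 Gy and 0 Gy, with 3 arrays each. The 1 Gy cells received γ-rays at 0.72 Gy per minute and were collected 2 hours later, and the 0 Gy cells were mock-irradiated. Both groups comprised the same 3 cell lines, independently derived from wild type (WT) mice with an Eμ-Bcl2 transgene, transformed by the v-Abl kinase and kept for 48 hours in 3 μM STI-571 (imatinib), which blocks that kinase and stops the cells before S phase. The Bcl2 product counters apoptosis, and the Eμ enhancer drives it in lymphoid cells. Every array therefore comes from transformed, drug-treated cells that carry this transgene. The replicate number marks the line, the labels do not say which named line has which number, and the lines are called lines 1, 2 and 3. No culture without STI-571 was analysed here, so the signals cannot be set against those of freely dividing cells. Signals are in arbitrary units, on a scale where each array's trimmed mean is 500, and compare a gene with itself and not with another gene.

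The arrays had similar overall signals. Between 41.7% and 43.8% of probe sets reached 100, the median signals were 51.6 to 59.4, and the 3′ to 5′ signal ratio of actin, a sign of RNA integrity, was 1.26 to 1.5. All 9 measured markers of pre-B cells (Cd79a, Cd79b, Vpreb1, Igll1, Ebf1, Pax5, Blnk, Rag1 and Rag2) exceeded 100 on all 6 arrays. Of 5 T cell, 5 myeloid, 4 erythroid and 5 stromal markers, only Lat and Itgam reached 100 on any array. The summed myeloid signal, mostly from Itgam, was 334 to 459 at 1 Gy and 227 to 287 at 0 Gy, and its part in the results below was not tested. Line 1 stood apart in the replication and mitosis genes. At 0 Gy, 48 of its 49 genes reached 100, compared with 40 in line 2 and 26 in line 3, although all 3 lines carry the same G1 label. Results that rest on line 1 are therefore also given without it.

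A cell copies its DNA in S phase and divides its chromosomes in M phase, and each step uses genes that are switched on in turn. E2F transcription factors, held back by the retinoblastoma family in G1, activate the genes that license origins and build the replication fork. Genes of G2 and mitosis are activated later, and in resting cells many of them are held down through a promoter sequence named the cell cycle genes homology region (CHR), often beside CCAAT boxes bound by NF-Y. In pre-B cells, division and immunoglobulin light chain recombination alternate, and v-Abl signalling keeps the cells in the dividing state.

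E2F sites were found mostly in promoters of the replication programme and the CHR mostly in those of the G2 and mitosis programme. CCAAT boxes were frequent in both. RefSeq promoters (mouse build GRCm38.p6, 250 bases before the start of the gene and 50 bases from it) matched 39 of the 49 genes, with 43 promoters. They were searched on both strands for the E2F site (TTTCCCGC, TTTGGCGC, TTTCGCGC or TTTGCCGC), the CHR (TTTGAA) and the CCAAT box (CCAAT). Of the 21 promoters of replication genes (licensing, helicase and DNA synthesis), 10 (47.6%) had an E2F site, 3 (14.3%) a CHR and 14 (66.7%) a CCAAT box. Of the 18 promoters of G2 and mitosis genes, 0 had one of these E2F sites, 13 (72.2%) had a CHR and 14 (77.8%) a CCAAT box. The shares among all 32851 RefSeq promoters of the same length were 2.26% for the E2F site, 17.9% for the CHR and 37.4% for the CCAAT box. A match is a stretch of letters and was not tested as a binding site.

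**Figure D1:**
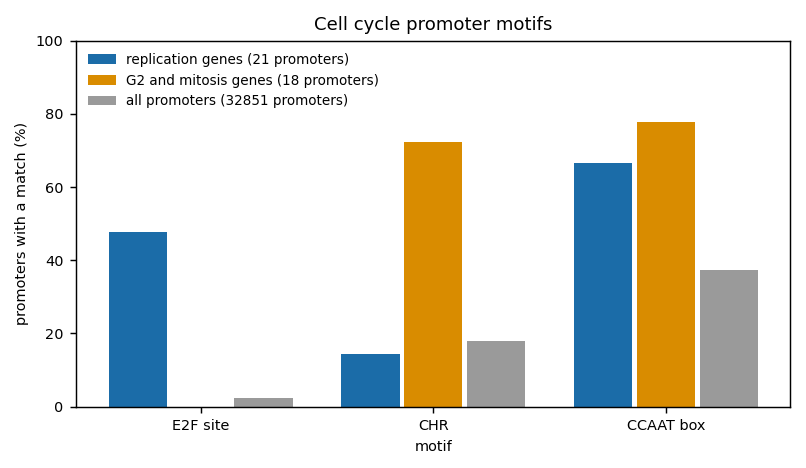
Share of promoters with at least 1 match (vertical axis, percent) for the E2F site, the CHR and the CCAAT box, in promoters of replication genes, of G2 and mitosis genes and of all genes. The E2F site bar of the replication genes stands at 47.6% and the CHR bar of the G2 and mitosis genes at 72.2%, over 2.26% and 17.9% of all promoters.

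Promoters of 6 genes on which the results turn are shown because they cover both programmes and the exceptions. They lie at chr17:56304063-56304362 on the plus strand (Uhrf1, the second of its RefSeq starts), chr6:88898731-88899030 on the minus strand (Mcm2), chr17:71526808-71527107 on the minus strand (Ndc80), chr11:99024140-99024439 on the minus strand (Top2a), chr19:37376132-37376431 on the plus strand (Kif11) and chr4:44300667-44300966 on the plus strand (Melk). Each is written 5′ to 3′ in the direction of the gene, and capitals mark the matches, which appear as TTCAAA or ATTGG where they lie on the other strand.
Uhrf1: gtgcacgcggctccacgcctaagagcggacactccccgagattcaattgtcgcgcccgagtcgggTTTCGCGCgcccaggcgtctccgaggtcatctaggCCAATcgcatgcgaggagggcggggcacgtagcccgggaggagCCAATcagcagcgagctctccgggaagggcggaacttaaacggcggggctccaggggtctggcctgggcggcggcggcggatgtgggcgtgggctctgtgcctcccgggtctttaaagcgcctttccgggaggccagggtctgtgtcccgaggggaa
Mcm2: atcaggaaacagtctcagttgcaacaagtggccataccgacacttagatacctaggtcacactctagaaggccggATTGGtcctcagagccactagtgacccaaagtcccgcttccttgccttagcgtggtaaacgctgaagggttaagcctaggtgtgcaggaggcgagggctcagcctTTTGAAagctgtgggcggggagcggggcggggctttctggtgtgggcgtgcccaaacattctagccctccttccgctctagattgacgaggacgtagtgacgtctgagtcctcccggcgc
Ndc80: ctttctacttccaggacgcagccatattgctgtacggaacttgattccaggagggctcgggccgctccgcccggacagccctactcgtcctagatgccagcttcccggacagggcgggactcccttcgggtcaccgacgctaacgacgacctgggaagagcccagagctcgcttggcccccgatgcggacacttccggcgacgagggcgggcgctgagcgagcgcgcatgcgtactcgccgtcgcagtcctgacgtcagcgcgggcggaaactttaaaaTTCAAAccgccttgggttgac
Top2a: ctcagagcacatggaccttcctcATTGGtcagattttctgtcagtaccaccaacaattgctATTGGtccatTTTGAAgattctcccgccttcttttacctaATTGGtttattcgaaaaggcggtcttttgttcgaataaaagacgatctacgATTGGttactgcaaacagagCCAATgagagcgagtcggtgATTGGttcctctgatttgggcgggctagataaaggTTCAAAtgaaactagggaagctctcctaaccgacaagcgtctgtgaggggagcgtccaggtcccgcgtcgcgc
Kif11: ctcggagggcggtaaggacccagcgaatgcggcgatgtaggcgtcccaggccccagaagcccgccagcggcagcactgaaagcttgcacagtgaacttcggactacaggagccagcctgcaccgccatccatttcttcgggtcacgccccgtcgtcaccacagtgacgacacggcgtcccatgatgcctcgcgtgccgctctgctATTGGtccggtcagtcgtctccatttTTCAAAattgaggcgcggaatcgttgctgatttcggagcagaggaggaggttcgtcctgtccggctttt
Melk: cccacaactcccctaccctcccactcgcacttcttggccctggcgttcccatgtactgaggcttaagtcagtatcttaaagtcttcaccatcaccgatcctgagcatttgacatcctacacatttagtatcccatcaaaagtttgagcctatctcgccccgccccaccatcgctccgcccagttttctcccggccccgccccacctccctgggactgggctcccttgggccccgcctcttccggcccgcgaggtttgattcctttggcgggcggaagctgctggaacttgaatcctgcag
The 16 matches in these promoters did not overlap. Uhrf1 held an E2F site 185 bases before the start and CCAAT boxes 150 and 107 bases before it. This start of Uhrf1 was shown because it has an E2F site. The promoter of the other start had a CCAAT box and no E2F site of the searched spellings. Mcm2, a replication gene, held a CHR 70 bases before the start and no E2F site of the searched spellings. Top2a held CHR matches 179 and 23 bases and 6 CCAAT boxes between 227 and 58 bases before the start, and Kif11 a CHR 19 bases and a CCAAT box 45 bases before it. In Ndc80 the CHR lay 30 bases after the start with no CCAAT box, and Melk had no match in this window.

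In the unirradiated cells, line 1 had the highest signal for nearly the whole list and line 3 the lowest for most of it. Line 1 was the highest of the lines for 45 of the 48 tested genes, line 3 the lowest for 35, and the order line 1, line 2, line 3 held for 34. Across all 9648 genes tested, line 1 was highest for 30.3%, line 3 lowest for 36.8%, and that order held for 19.3%. For 6 of the 48 genes, which reached 100 in line 1 alone, the minimum fixed which line could be highest, and without them line 1 was the highest for 39 of 42, line 3 the lowest for 32 and the order held for 31. The median gene of the list was 2.76-fold higher in line 1 than in line 2 and 4.42-fold higher in line 1 than in line 3, where the medians over all genes were 0.968 and 0.986. A single array per line at 0 Gy allows no test at that dose, and a line cannot be told apart from its culture. Over both doses, with dose as a covariate, 20 of the 48 genes (41.7%) differed between lines (limma F test, adjusted p under 0.05, 2 arrays per line), where 9.62% of all genes tested did. The share of cells in S, G2 or M phase and the RNA per cell cannot be told apart on arrays of whole cultures.

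**Figure D2:**
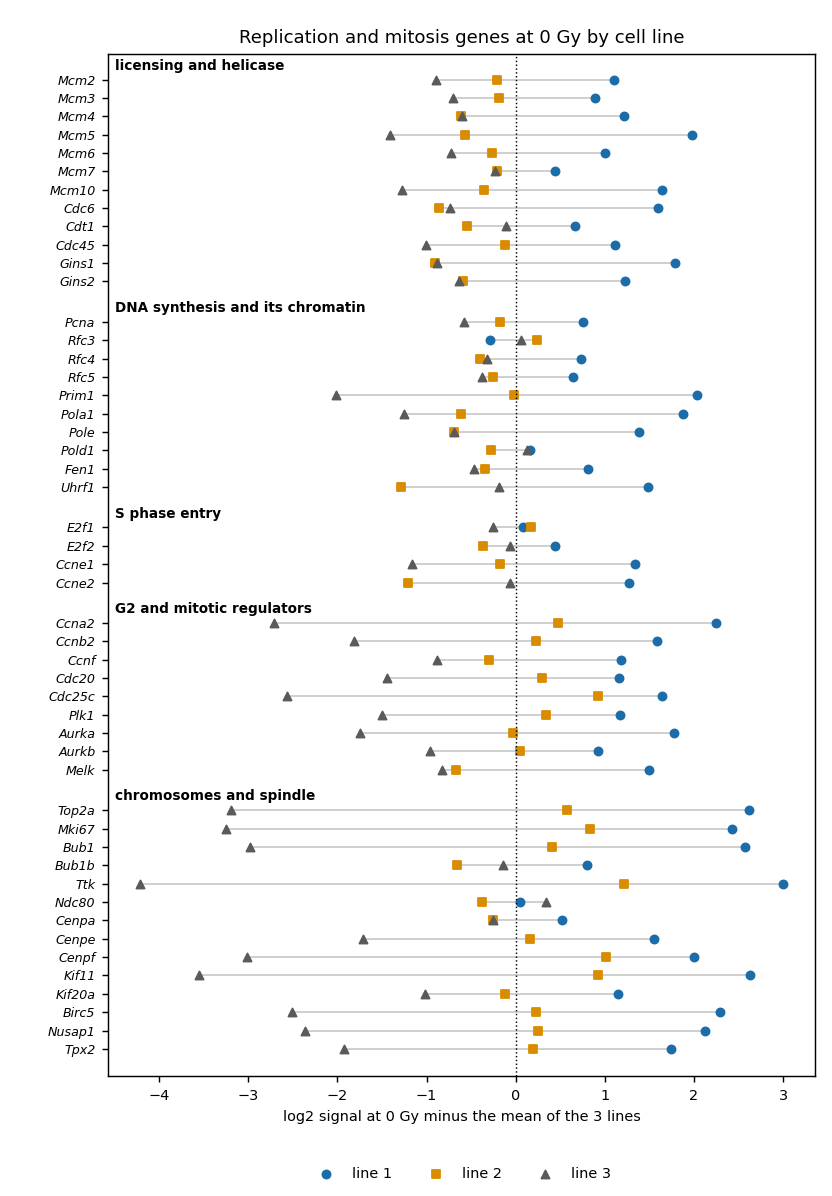
Log2 signal of 49 replication and mitosis genes in each line at 0 Gy, centred on the mean of the 3 lines of the same gene (horizontal axis) and grouped by role. Line 1 lies to the right for all but Rfc3, E2f1 and Ndc80, and the spread between lines is widest in the chromosome and spindle group, where 10 of 14 line 3 signals were under 100; Cdc25c, whose brightest probe set was under 100 on every array, is drawn but is not among the 48.

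The gap from line 1 to line 3 was widest for the genes of proteins that build and move mitotic chromosomes. In this group of 14 genes the median gene was 25.0-fold higher in line 1 than in line 3 at 0 Gy, and 10 of the 14 were under 100 in line 3. With signals under 100 set to 100 the median was 6.85-fold, in which those 10 genes enter as lower bounds. Mki67, which coats mitotic chromosomes and is the gene of the Ki-67 proliferation marker, had signals of 2279, 1008 and 57.0 at 1 Gy in lines 1, 2 and 3, and of 4665, 1546 and 91.7 at 0 Gy. Both signals of a line lay apart from those of the other lines, and the adjusted p across lines was 0.0045 (limma F test). Both line 3 signals were under 100, and with 100 in its place line 1 exceeded line 3 by at least 46.7-fold at 0 Gy. Top2a, the topoisomerase that untangles sister chromatids, had 2082, 1083 and 107 at 1 Gy and 4769, 1161 and 85.4 at 0 Gy. Its line 3 arrays lay near the minimum of 100 at both doses, and the lines differed (adjusted p = 0.014, limma F test).

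Motor and checkpoint genes varied in this order, and those with the widest range at 0 Gy followed it. Kif11, the kinesin that pushes spindle poles apart, had 354, 135 and 18.0 at 1 Gy in lines 1, 2 and 3, and 899, 276 and 12.3 at 0 Gy, so that its line 3 signals were under 100 at both doses. Cenpf, a kinetochore protein of G2 and mitosis, had 242, 223 and 35.0 at 1 Gy and 816, 409 and 25.2 at 0 Gy. Both differed between lines in the limma F test (adjusted p = 0.020 for Kif11 and 0.037 for Cenpf). Bub1, a kinase of the spindle checkpoint, had 301, 179.9 and 43.4 at 1 Gy and 979.8, 218 and 21.0 at 0 Gy. Ttk, the checkpoint kinase Mps1, had 179, 72.7 and 22.7 at 1 Gy and 486, 141 and 3.27 at 0 Gy. Bub1 and Ttk had the same order of lines at both doses without passing the F test (limma, adjusted p = 0.054 for Bub1 and 0.098 for Ttk). Bub1b, the BubR1 checkpoint gene, departed from the order, with 820.4, 585 and 1009 at 1 Gy and 1147, 417 and 599.7 at 0 Gy, so that line 3 was the highest at 1 Gy. Kif20a, a motor of late mitosis, had 234, 134 and 164 at 1 Gy and 548, 228 and 122 at 0 Gy, with line 3 above line 2 at 1 Gy. Birc5 (survivin), Nusap1 and Tpx2, which act at the spindle and at centromeres, also differed between lines in that test.

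The regulators of G2 and mitosis followed the same order in 8 of 8 tested genes, where it held for 19.3% of all genes tested. Their median was 6.22-fold higher in line 1 than in line 3, with or without signals under 100 set to 100. Of the 8 regulators, 6 differed between lines (Ccna2, Ccnb2, Cdc20, Plk1, Aurka and Aurkb, limma F test), where 9.62% of all genes tested did. Ccna2, the cyclin that partners Cdk2 in S phase and Cdk1 in G2, had 716, 362 and 26.7 at 1 Gy in lines 1, 2 and 3, and 2237, 656 and 72.0 at 0 Gy. Both line 3 signals were under 100, with 100 in its place line 1 exceeded line 3 by at least 22.4-fold at 0 Gy, and the adjusted p across lines was 0.0073 (limma F test). Cdc20, which activates the anaphase-promoting complex, had 2306, 1621 and 604 at 1 Gy and 4617, 2545 and 762 at 0 Gy, and stayed above 100 in every line. Its probe set is of a type that can also bind related transcripts, as are those used for Mcm5, Pold1, Fen1, Ccne1 and Aurkb.

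The median gaps to line 3 were smaller for the replication genes than for the genes of G2 and mitosis. The median fold between lines 1 and 3 at 0 Gy was 3.82 for licensing and helicase genes, 2.47 for DNA synthesis genes and 1.90 for the S phase entry genes. With signals under 100 set to 100 these medians were 3.30, 2.47 and 1.58. Lines 2 and 3 were close in these groups, with median folds of line 2 over line 3 of 1.19, 1.09 and 1.05, compared with 3.31 for the G2 and mitotic regulators and 6.39 for the chromosome and spindle genes. In line 3 at 0 Gy, 10 of the 14 chromosome and spindle genes and 3 of the 8 regulators were under 100. Their folds over line 3 are therefore uncertain, and line 2 over line 3 does not rank the regulators against the chromosome and spindle genes. Between lines 1 and 2 the group medians lay closer together. The median fold of line 1 over line 2 was 2.97 for licensing and helicase, 2.22 for DNA synthesis and 2.23 for S phase entry genes. For the G2 and mitotic regulators it was 2.66, and for the chromosome and spindle genes 2.97. With signals under 100 set to 100 these medians were, in the same order, 2.45, 2.22, 1.75, 2.67 and 2.97. The S phase entry genes E2f1, E2f2, Ccne1 and Ccne2 did not pass the limma F test across lines (adjusted p of 0.12 to 0.50). Pcna, the sliding clamp of the fork, had 7692, 6646 and 5183 at 1 Gy and 12439, 6562 and 4945 at 0 Gy, which kept it far above 100 on every array. Across the list, 23 of the 48 genes reached 100 on all 6 arrays, and 6 reached it in line 1 alone (Cdc6, Gins1, Pola1, Pole, Ccne1 and Ccne2). For these 6 genes the minimum partly set the fold of line 1 over the other lines, and so the medians of their groups.

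After 1 Gy, most of these genes had lower signals, and the size of the difference varied with the line. The median log2 change, 1 Gy over 0 Gy, was -0.61, with 41 genes lower and 7 higher on average, where the median of all genes tested was -0.11. In line 1 the median was -1.17 and 45 of 48 genes were lower, in line 2 it was -0.42 with 38 lower, and in line 3 it was -0.14 with 30 lower. The medians over all genes in the same lines were -0.08, -0.13 and -0.12. Without line 1 the median of the list was -0.26. Without the 0 Gy array of line 1 alone it was 0.16, but line 1 was then present at 1 Gy only and the lines were unbalanced. Each line had 1 array per dose, and whether the dose effect differed between lines could not be tested. In 27 of the 48 genes (56.2%) the signal was lower at 1 Gy in all 3 lines, where this held for 41.3% of all genes tested, and in 2 (Mcm10 and Melk) it was higher in all 3, where this held for 23.8%. Cdc6, E2f1, Ccne1 and Ccne2 reached 100 at 0 Gy alone, which favoured a lower signal at 1 Gy. Without these 4 genes, 37 of 44 were lower on average and 26 in all 3 lines, and the median log2 change was -0.61.

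**Figure D3:**
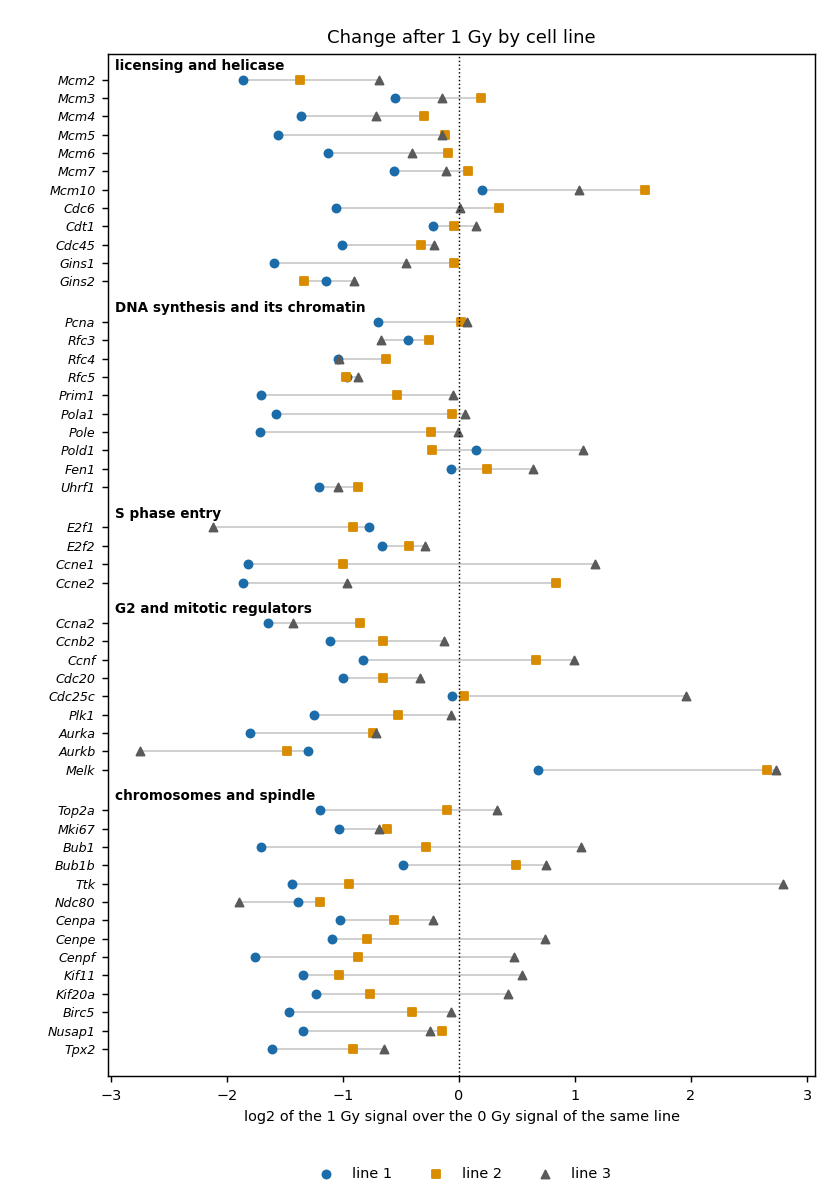
Log2 of the 1 Gy signal over the 0 Gy signal within each line (horizontal axis) for 49 replication and mitosis genes, grouped by role. Line 1 points lie left of 0 for 45 of the 48 tested genes, and line 3 points lie nearer 0 or to its right for most chromosome and spindle genes, whose median was -1.34 in line 1, -0.69 in line 2 and 0.38 in line 3.

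The test across doses called 1 gene lower at 1 Gy, Ndc80, and 0 higher (limma, adjusted p under 0.05). The shares of all genes tested called lower and higher were 3.2% and 2.11%. At an unadjusted p under 0.05, 3 of the 48 (6.25%) were lower (Rfc5, E2f1 and Ndc80) and 1 (2.08%) higher (Melk), where 16.7% and 8.39% of all genes tested were. With the line as a block, which takes out the level of each line, 10 of the 48 (20.8%) were called lower and 1 (2.08%) higher, where 14.6% and 6.63% of all genes tested were. The genes called lower were Mcm2, Gins2, Rfc4, Rfc5, Uhrf1, Ccna2, Aurkb, Mki67, Ndc80 and Tpx2, and the gene called higher was Melk. With signals under 100 set to 100, Gins2, Ccna2, Mki67 and Tpx2 were no longer called with the block, and E2f1 and Cdc20 were. The count in the blocked fit also fell where a line was left out, which leaves fewer arrays for every gene. It was 0 without line 1 (13 at an unadjusted p under 0.05), 3 without line 2 and 4 without line 3, and of the 10 genes only Ndc80 was called without line 2 and also without line 3. In 3 genes (E2f1, Ndc80 and Cenpa) all 1 Gy arrays lay below all 0 Gy arrays, which held for 20.6% of all genes tested, and in 1 (Melk) they lay above, which held for 12.4%. E2f1 reached 100 at 0 Gy only, so that its place in these counts was partly set by that minimum.

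**Figure D4:**
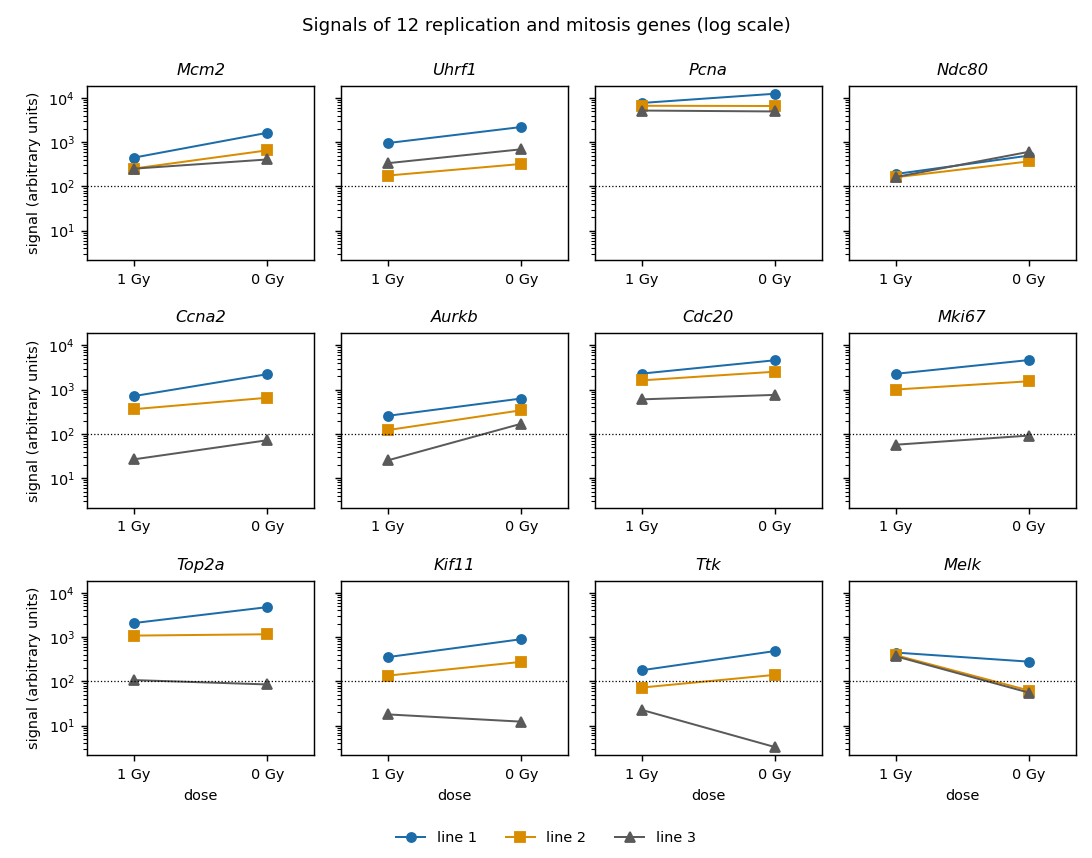
Signals of 12 replication and mitosis genes (vertical axis, arbitrary units, log scale) at 1 Gy and 0 Gy, with 1 point per array, a line joining the arrays of the same cell line and a dotted line at 100. Ndc80 lies between 161 and 191 at 1 Gy and between 368 and 606 at 0 Gy in all 3 lines, whereas Mki67 and Top2a are separated by line.

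Among the licensing and helicase genes, 2 of 12 (16.7%) were called lower in the blocked fit, where 14.6% of all genes tested were. Mcm2, a subunit of the ring helicase that unwinds DNA, had 448, 254 and 252 at 1 Gy in lines 1, 2 and 3, and 1629, 654 and 407 at 0 Gy. Within each line the 1 Gy signal was lower, by 3.64-fold, 2.58-fold and 1.61-fold, while the groups overlapped because line 1 at 1 Gy exceeded line 3 at 0 Gy. Its log2 change was -1.31 ± 0.54 (SE, n = 3 per dose, limma adjusted p = 0.22), and with the block it was -1.31 ± 0.25 (adjusted p = 0.034). Gins2, part of the GINS complex that joins the helicase, had 169, 42.0 and 54.9 at 1 Gy and 375, 106 and 103 at 0 Gy. Its log2 changes of -1.15, -1.34 and -0.90 in the lines gave a blocked estimate of -1.13 ± 0.14 (adjusted p = 0.017, limma), and at 1 Gy only line 1 exceeded 100. With signals under 100 set to 100 the log2 change was -0.42. The other MCM ring subunits, Mcm3 to Mcm7, were not called, with log2 changes of -0.17 to -0.79. Mcm10, which helps fire licensed origins, had 379, 252 and 89.9 at 1 Gy and 330.0, 83.0 and 43.8 at 0 Gy, with a log2 change of 0.95 ± 0.29 in the blocked fit that did not pass (limma adjusted p = 0.091).

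Among the DNA synthesis genes, 3 of 10 were called lower with the block, where 14.6% of all genes tested were. Rfc5, part of the loader that places Pcna on DNA, had 480.2, 256 and 253 at 1 Gy and 938, 504 and 462 at 0 Gy. The change was close to the same in each line, with log2 changes of -0.97, -0.97 and -0.87, and a blocked estimate of -0.94 ± 0.11 (adjusted p = 0.016, limma). Rfc4, another subunit of the loader, had a blocked log2 change of -0.90 ± 0.14 (limma adjusted p = 0.024), and Rfc3 one of -0.46 ± 0.13 that did not pass (limma adjusted p = 0.083). Uhrf1, which brings the maintenance DNA methyltransferase to newly copied DNA, had 955, 176 and 335 at 1 Gy and 2201, 322 and 691 at 0 Gy. Uhrf1 departed from the common order of lines, with line 3 above line 2 at both doses. Its log2 changes of -1.20, -0.87 and -1.04 gave a blocked estimate of -1.04 ± 0.13 (adjusted p = 0.017, limma). Pcna had log2 changes of -0.69 in line 1, 0.02 in line 2 and 0.07 in line 3, and was not called with or without the block (limma adjusted p = 0.50 and 0.80). The polymerase genes Pola1, Pole and Pold1, the primase gene Prim1 and Fen1, which trims Okazaki fragments, were not called either, with log2 changes of -0.76 to 0.33.

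Of the 4 S phase entry genes, 0 were called with or without the block (limma), and 2 (E2f1 and E2f2) were lower at an unadjusted p under 0.05 in the blocked fit and 1 (E2f1) without it, thresholds that 27.8% and 16.7% of all genes tested passed. E2f1, which activates replication genes, had 96.5, 93.4 and 30.0 at 1 Gy and 165, 176 and 130.4 at 0 Gy. Its signals were under 100 on all 1 Gy arrays and above 100 on all 0 Gy arrays, with a blocked log2 change of -1.27 ± 0.30 (limma adjusted p = 0.053). E2f1 entered the test through the 0 Gy arrays alone, so that its lower signal at 1 Gy was partly set by the minimum of 100 and its place among the lower genes is a description. Ccne1 and Ccne2, the E cyclins that activate Cdk2, and Cdc6, which loads the MCM ring, likewise reached 100 only at 0 Gy, in line 1.

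Among the G2 and mitotic regulators, 2 of 8 were called lower with the block and 1 higher. The shares of all genes tested were 14.6% and 6.63%. Aurkb, the kinase of the chromosomal passenger complex, had 256, 122 and 25.3 at 1 Gy in lines 1, 2 and 3, and 630.3, 342 and 169.8 at 0 Gy. It was lower in each line, by 2.46-fold in line 1, 2.80-fold in line 2 and at least 1.70-fold in line 3, whose 1 Gy signal was under 100. The blocked log2 change was -1.84 ± 0.32 (adjusted p = 0.029, limma), and the log2 change was -1.18 with signals under 100 set to 100. Ccna2, whose signals are given above, was lower by 3.12-fold in line 1 and 1.81-fold in line 2, with a blocked log2 change of -1.31 ± 0.19 (adjusted p = 0.021, limma), and its line 3 signals were under 100 at both doses. Cdc20 was lower by 2.00-fold, 1.57-fold and 1.26-fold and was not called (blocked log2 change -0.66 ± 0.17, limma adjusted p = 0.061). Plk1, Aurka and Ccnb2, which drive entry into mitosis, were lower in all 3 lines and did not pass, with log2 changes of -0.61, -1.08 and -0.63.

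Melk was higher at 1 Gy. This kinase, expressed mainly in dividing cells, had 448, 391 and 370.1 at 1 Gy in lines 1, 2 and 3, and 279, 62.2 and 55.7 at 0 Gy. The groups did not overlap, the 1 Gy arrays were close to each other, and at 0 Gy only line 1 exceeded 100. Melk averaged 403 ± 40.4 at 1 Gy and 132 ± 127 at 0 Gy (SD, n = 3 each). Its log2 change was 2.02 ± 0.63 (SE, limma adjusted p = 0.13), and with the block 2.02 ± 0.46 (limma adjusted p = 0.048). This call was lost without line 2 or without line 3, in fits with fewer arrays. It rests on 1 probe set.

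Ndc80, the kinetochore protein that grips spindle microtubules, was the gene called without the block. Its signals were 191, 161 and 163 at 1 Gy in lines 1, 2 and 3, and 498, 368 and 606 at 0 Gy, so that line 3, lowest for most of the list, was the highest for Ndc80 at 0 Gy. It averaged 171 ± 16.7 at 1 Gy and 491 ± 119 at 0 Gy (SD, n = 3 each). Ndc80 was lower in each line, by 2.61-fold, 2.29-fold and 3.72-fold, with a log2 change of -1.49 ± 0.22 (limma adjusted p = 0.030, and 0.016 with the block). It did not pass the F test across lines (limma, adjusted p = 0.43). Without any 1 array the adjusted p was 0.070 to 0.098, and without both arrays of a line 0.13 to 0.24, so that the call without the block needed all 6 arrays.

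Among the other chromosome and spindle genes, Mki67 and Tpx2 were called lower with the block. Mki67 was lower by 2.05-fold in line 1 and 1.53-fold in line 2, both line 3 signals being under 100, with a blocked log2 change of -0.78 ± 0.14 (adjusted p = 0.030, limma). Tpx2, which activates Aurka on the spindle, had 177, 97.9 and 27.2 at 1 Gy and 539.5, 184 and 42.5 at 0 Gy, with a blocked log2 change of -1.05 ± 0.22 (adjusted p = 0.041, limma). Its signal was under 100 in line 2 at 1 Gy and in line 3 at both doses. The direction in the group varied with the line. All 14 were lower at 1 Gy in line 1 and 13 in line 2, while 6 were lower in line 3, where 4 of the 14 reached 100 at 0 Gy and 5 at 1 Gy. Top2a had log2 changes of -1.20, -0.10 and 0.33 in lines 1, 2 and 3, and Kif11 of -1.34, -1.03 and 0.54, and neither was called with the block (limma adjusted p = 0.51 for Top2a and 0.33 for Kif11). Cenpa, the histone variant that marks centromeres, had 1565, 1261 and 1604 at 1 Gy and 3193, 1863 and 1869 at 0 Gy, with a blocked log2 change of -0.60 ± 0.19 that did not pass (limma adjusted p = 0.094).

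Other probe sets of the same genes moved the same way in most cases. Of 29 genes with more than 1 tested probe set, 27 had every probe set changing in the same direction on average, and in Cdc45 and Ttk the directions differed. Calls with the block varied more. Of the 7 further tested probe sets of genes called with it, 4 were called (Aurkb, Mcm2, Rfc4 and Tpx2) and 3 were not, with log2 changes of -0.75 for Ccna2, -0.87 for Gins2 and -0.46 for Uhrf1 (limma adjusted p = 0.14, 0.076 and 0.24). For genes not called by their brightest probe set, a further probe set passed with the block for E2f1 and for Ttk. The log2 change was -1.05 for E2f1 (limma adjusted p = 0.024) and -1.27 for Ttk (limma adjusted p = 0.021). Both of these probe sets reached the minimum signal at 0 Gy only, that of Ttk in line 1 alone. Their highest signals at 1 Gy were 85.3 for E2f1 and 48.8 for Ttk. Their lower signals at 1 Gy were therefore partly set by that minimum, and these calls are a description.

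Replication and mitosis genes outside the list also had mostly lower signals at 1 Gy. Of 100 other cell cycle genes tested, 88 were lower on average, 4 were called lower and 0 higher at 1 Gy (limma, 11 and 3 at an unadjusted p under 0.05, where 16.7% and 8.39% of all genes were). Of all genes tested, 60.3% were lower on average, and 3.2% were called lower and 2.11% higher. The median log2 change of the 100 genes was -0.58. With the block 28 were called lower and 2 higher, where 14.6% and 6.63% of all genes tested were. The 28, and the 11 at an unadjusted p under 0.05, include Orc1 and Mcm8, which reached 100 at 0 Gy only. Their lower signals at 1 Gy were partly set by that minimum, and genes of this kind were not left out here. The 4 called without the block were Rpa1 and Rpa3, subunits of the complex that coats single-stranded DNA, Rnaseh2a, which removes RNA from DNA, and Atad2, a chromatin-bound ATPase. Rpa1 had 2007, 1754 and 1734 at 1 Gy and 4839, 3610.5 and 4115 at 0 Gy, with a log2 change of -1.19 ± 0.16 (limma adjusted p = 0.027). Rpa3, Rnaseh2a and Atad2 had log2 changes of -0.99, -1.11 and -1.24, and in these 4 genes all 1 Gy arrays lay below all 0 Gy arrays. The 2 genes called higher with the block, named here after their values were seen, were Mybl2, the B-Myb factor of G2 genes, and Pttg1 (securin). Mybl2 had 444, 374 and 695 at 1 Gy and 189, 65.0 and 118 at 0 Gy, and Pttg1 had 20806, 12032 and 17584 at 1 Gy and 9499, 3536 and 7397 at 0 Gy. In both genes all 1 Gy arrays lay above all 0 Gy arrays. Line 1 was the highest at 0 Gy for 87 of these 100 genes, and 38 differed between lines (limma F test). The shares over all genes tested were 30.3% and 9.62%.

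Of 17 tested regulators of G1 and of the G2 checkpoint, 1 was called lower (Cdkn2d) and 1 higher (Wee1) without the block. The shares of all genes tested were 3.2% and 2.11%. With the block 5 were called lower (Ccnd3, Rbl1, Cdkn1b, Cdkn2c and Cdkn2d) and 3 higher (Ccnd2, Cdkn1a and Wee1). For all genes tested these shares were 14.6% and 6.63%. Cdkn2d, the p19 inhibitor of Cdk4 and Cdk6, had 537, 505 and 745 at 1 Gy and 1523, 1571 and 2181 at 0 Gy, with a log2 change of -1.56 ± 0.23 (limma adjusted p = 0.030). Wee1, the kinase that holds Cdk1 inactive, had 2053, 1913 and 1284 at 1 Gy and 666, 434 and 512 at 0 Gy, with a log2 change of 1.70 ± 0.26 (limma adjusted p = 0.032). The doses did not overlap in either gene, and neither passed the F test across lines (limma, adjusted p = 0.12 for Cdkn2d and 0.34 for Wee1).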

How the data were processed

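The deposited intensity values are linear signals, 1 for every probe set on 6 Affymetrix Mouse 430 2.0 arrays, for which the submitters name MAS5. Trimming 2% of probe sets at each end leaves every array with a mean of 500. The study's methods name RMA with quantile normalization, which needs scanner files not used here. No detection flags were used, and signal over background and the number of arrays limit the precision.

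Signals under 1 were set to 1 before taking log2. The 64 controls were removed, and 21762 of 45037 probe sets, reaching 100 on at least 1 array, were tested for dose alone (limma 3.58.1, R 4.3.3), each p-value being adjusted over all of them (Benjamini-Hochberg). For each gene the probe set with the highest mean log2 signal was taken, from the 34945 that the platform annotation gives 1 name. Lines were compared by an F test with dose as a covariate.

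Replicate numbers mark lines, as the series' design text states. Deviations from group means correlated at 0.668 to 0.781 within lines (3 pairs) and at -0.495 to -0.053 between lines (6 pairs). Arrays were therefore treated as paired by line, with line as a block, in an alternative fit. The p-values by dose alone rest on the spread between 3 lines within a dose. Those with the block and those of the F test rest on how the dose change varied over the 3 lines. Scripts were tested on simulated data.

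Named genes were those called with or without the block (up to 8 of largest change in each direction), the 6 of widest range between lines at 0 Gy, Mki67, Pcna, Mcm2, Top2a and Cdc20, up to 4 called other cell cycle genes in each direction, and called G1 regulators. Further genes were named after their values were seen. Genes and lists were chosen with earlier results of these data known. The alternatives covered filters, scalings, offsets, variance priors, the methods' t-test, averaged probe sets, and arrays or lines left out.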

Additional observations from a re-analysis of the deposited data

Results flagged for a closer look

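In 6 of the named genes the arrays of different lines moved in opposite directions after 1 Gy, and this difference between lines was not tested, because each line has 1 array per dose. The highest minus the lowest log2 change over the lines was 4.24 for Ttk, 2.75 for Bub1, 2.23 for Cenpf, 1.89 for Kif11, 1.52 for Top2a and 0.76 for Pcna. In each of them line 1 was lower at 1 Gy and line 3 was higher. For Ttk, Bub1, Cenpf and Kif11 both line 3 signals were under 100, where a log2 difference is least certain. For Top2a they were 107 at 1 Gy and 85.4 at 0 Gy. Pcna was far above 100 on every array, and its line 3 signals were 5183 at 1 Gy and 4945 at 0 Gy.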

How the results depend on the processing

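The number of replication and mitosis genes called lower at 1 Gy was 1 in the fit by dose alone, 10 with the replicate block, and 0 with no filter (1 at an unadjusted p under 0.05) and with the methods' t-test after adjustment (1 unadjusted). Combined with the block, and chosen after seeing the data, quantile normalization gave 7, a common median 11, signals under 100 set to 100 gave 8, and leaving out line 1, 2 or 3 gave 0, 3 and 4. Leaving out arrays or lines gave 0 to 0 without the block (1 to 7 unadjusted). Genes called higher were 0 without and 1 with the block, also 1 with the block and each of those scalings, the raised minimum or line 1 left out, and 0 to 1 with arrays left out (1, Melk, without the 0 Gy array of line 1). The median log2 change was -0.61, -0.51 under both other scalings, and -1.14 to 0.16 with arrays or lines left out. Leaving out a single array unbalanced the lines between the doses. Genes differing between lines were 20, 36 with a trend in the variance prior, 0 with no filter (29 unadjusted), and 8 to 16 with an array left out. The median fold of chromosome and spindle genes between lines 1 and 3 at 0 Gy was 25.0, and 6.85 with signals under 100 set to 100, also chosen after seeing the data.

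Other cell cycle genes called lower were 4, 28 with the block, 0 with no filter (10 unadjusted) and 0 to 0 with arrays left out (7 to 17 unadjusted). Those called higher were 0, 2 with the block, and 1 (Mybl2) with 100 on at least 3 arrays, quantile normalization, log2 of the signal plus 16, signals under 100 set to 100, or the variance trend. Over the whole array 975 probe sets were called by dose, 3974 with the block, 1 with no filter, 1476 with the raised minimum, 1515 with the trend, 2850 with the methods' t-test and 294 after its adjustment. With the block they were 3701 after quantile normalization, 3874 with a common median and 4294 with the raised minimum, and 0 to 120 with arrays left out and no block. Those that differed between lines were 1872, 4358 with the trend, 0 with no filter (5811 unadjusted) and 521 to 868 with an array left out.

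Among single genes, the log2 change of Ttk was 0.13, and -0.39 with log2 of the signal plus 16, -0.64 with the raised minimum and -0.57 over the mean of its probe sets. With arrays or lines left out and no block, so that the lines were no longer balanced, the log2 change ranged from -1.80 to 0.97 for Bub1, -2.67 to 0.11 for Ccna2, -2.22 to 0.28 for Cenpf, -2.39 to 0.70 for Kif11, -2.40 to 0.80 for Mki67, -0.49 to 0.17 for Pcna, -1.92 to 0.98 for Top2a and -1.97 to 1.63 for Ttk. Of the other values of named genes under an alternative, 265 kept direction and side of the threshold, 10 passed it newly and 10 (all Ndc80) no longer did. The cause was not tested.

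Line 3 signals under 100 limit what can be said of mitotic genes there, and 3 lines limit every p-value.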
